A study of Mus musculus with 2 samples.

Results

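The 43 genes described here make enzymes that charge transfer RNAs (tRNAs) with amino acids or modify a charged tRNA. They were read in 4T1 cells, a murine breast cancer line. The genes were taken by symbol from a list of 23 cytosolic and 20 mitochondrial members, and all 43 were found among the 14197 genes of the deposited table. In the AS-treated group, the cells received the plant flavonoid astragalin (AS) at 20 μM for 24 h, and in the control group they received the vehicle. The cells are given as wild type in both groups, and 1 RNA-seq library was made per group. None of the differences below has a replicate check, and the dish and the treatment cannot be told apart.

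Aminoacyl-tRNA synthetases join each amino acid to its tRNA before translation, and by the fold of their catalytic core they belong to class I or class II. Mitochondria translate their own genome and use a separate set of synthetases that is also encoded in the nucleus. When a synthetase lacks its amino acid, uncharged tRNA activates the kinase GCN2, and the transcription factor ATF4 is then translated more. ATF4 is known to raise amino acid transporters, amino acid biosynthesis enzymes and many of the cytosolic synthetases. A list of 12 cytosolic synthetases that are commonly counted among its targets was used to divide the members.

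The values are RPKM, reads scaled to the exon length of the gene and the size of the library. This length counts all annotated exons, from 1797 bases for Gatc to 18102 for Eprs. Comparisons of level between genes are therefore approximate. Whole reads were recovered from the RPKM, and they came to 44820148 for AS and 50723618 for the vehicle. Log2 fold changes are those of AS over vehicle with 0.1 RPKM added to both values, and intervals (95%, Clopper-Pearson) use the recovered reads without the added amount, so they cover counting error only. A difference was called beyond a log2 fold change of 1, and a second threshold of 1.5-fold was read as well. The median of all genes was 0.07. Epcam, Cdh1, Krt8, Krt18 and Krt19, which mark epithelial cells, had at least 84.6 RPKM in both libraries. Their log2 fold changes were -0.73 for Krt19, which is past 1.5-fold, -0.54 for Krt8, -0.35 for Krt18, -0.09 for Epcam and 0.17 for Cdh1, and their part in the results was not tested. The leukocyte markers in the table, Ptprc and Itgam, had at most 0.407 RPKM, and the fibroblast marker Col1a2 at most 0.355. Another fibroblast marker, Pdgfra, had 4.24 RPKM with AS against 4.16 in the control. The endothelial markers and 4 other markers of leukocytes and fibroblasts were not listed in the table. Structural RNA entries differed between the libraries, with 10 reads of Rn7s1 under AS against 376 under the vehicle. Mir6236, a small RNA entry, had 36 reads under AS against 184. The part of these entries in the results below was not tested.

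The summed level of the cytosolic members was higher with AS, and that of the mitochondrial members was close to the vehicle. The RPKM of the 23 cytosolic genes summed to 1297 with AS against 860.2 in the control, a ratio of 1.51, and that of the 20 mitochondrial genes to 83.1 and 80.3, a ratio of 1.03. Over all genes this ratio was 0.961. The median log2 fold change was 0.45 in the cytosol and 0.09 in the mitochondria. Only Aars and Lars of the 43 passed a log2 fold change of 1, where 0.662% of all genes did so upward and 0.31% downward. At 1.5-fold, 10 cytosolic genes were higher and 0 were lower, where 3.56% of all genes were higher and 2.01% were lower. Among the 6946 genes with at least 5 RPKM in the vehicle library, a level that 20 of the cytosolic genes reached, 1.74% were higher and 1.77% lower by as much. This split by level was chosen after the values were seen. In the mitochondrial group 1 gene was higher by 1.5-fold and 2 were lower.

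**Figure D1:**
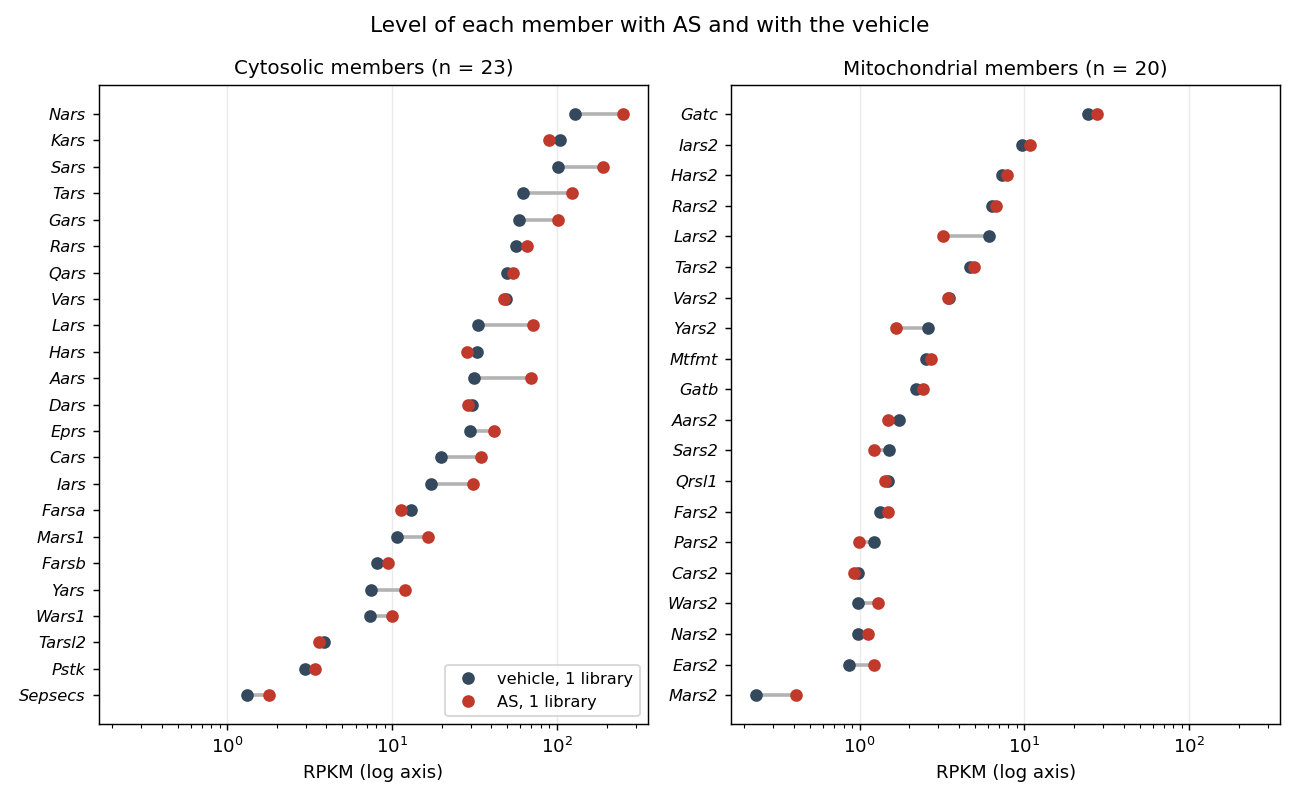
RPKM on a log axis of each member with AS and with the vehicle, for the 23 cytosolic and the 20 mitochondrial members in order of their vehicle level. Each dot is 1 library. The cytosolic genes reach from 1.32 to 129 RPKM with the vehicle and the mitochondrial genes from 0.235 to 24.2.

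Among the class I enzymes of the cytosol, Lars, the leucyl enzyme, had the largest difference. Its RPKM was 71.6 with AS, from 17249 reads, and 33.4 with the vehicle, from 9104 reads. The log2 fold change was 1.10, with an interval from 1.06 to 1.14. Lars lies on chromosome 18 from 42202298 to 42262194 of GRCm38, and it shares no stretch of 31 bases with the transcripts of any other gene of GENCODE M21.

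Iars, the isoleucyl enzyme, had an RPKM of 30.9 with AS against 17.1 in the control, on 7311 against 4585 reads, and a log2 fold change of 0.85 (interval 0.80 to 0.91). Of the stretches of 31 bases in its transcripts, 14.7% also occur in other genes, nearly all of them in Gm4849, so part of its reads is uncertain. Cars, which charges cysteine, had 34.7 RPKM with AS against 19.8 in the control, a log2 fold change of 0.81 (interval 0.77 to 0.86), on 10257 against 6612 reads. These enzymes were higher by more than 1.5-fold and remained below the threshold of 1.

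Yars and Mars1, for tyrosine and methionine, also passed 1.5-fold. Yars had 12.02 RPKM with AS against 7.40 in the control, on 3209 against 2234 reads, a log2 fold change of 0.69 (interval 0.62 to 0.78). Mars1 had 16.6 RPKM with AS against 10.6 in the control, on 2553 against 1852 reads, a log2 fold change of 0.64 (interval 0.55 to 0.73). With TMM normalization of the reads the value of Mars1 was 0.57, which is under 1.5-fold. Mars1 lies on the minus strand of chromosome 10 and its 3′ end overlaps that of Ddit3, the gene of the stress factor CHOP, by 68 bases from 127296221 to 127296288. Ddit3 had a log2 fold change of 1.68, and 1.24% of the 31-base stretches of Mars1 occur in other genes, mostly in Ddit3 on the opposite strand. The effect of this overlap on the reads of Mars1 was not tested.

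The other class I enzymes of the cytosol differed less. Wars1, the tryptophanyl enzyme, had 10.03 RPKM with AS against 7.34 in the control, a log2 fold change of 0.45 (interval 0.34 to 0.56). Rars and Qars, for arginine and glutamine, had 65.8 and 54.2 RPKM with AS and 56.2 and 49.4 with the vehicle. Their log2 fold changes were 0.23 and 0.13. Vars, the valyl enzyme, had 47.8 RPKM with AS against 49.02 in the control, and its interval, from -0.07 to just above 0, includes no change. Eprs is a fusion of a class I glutamyl and a class II prolyl enzyme, and it had 41.5 RPKM with AS against 29.8 in the control, a log2 fold change of 0.48 (interval 0.46 to 0.50). Wars1 and Eprs are the listed ATF4 targets that stayed under 1.5-fold.

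Class II held the largest rise of all members and the most abundant transcripts. Aars, the alanyl enzyme on chromosome 8 from 111033144 to 111057664, had 69.4 RPKM with AS against 31.4 in the control, on 28937 against 14803 reads. Its log2 fold change was 1.14 (interval 1.12 to 1.17). The annotation places the gene of the exosome subunit Exosc6 inside its last part, on the same strand, and 14.4% of the 31-base stretches of Aars are shared, chiefly with that gene. Exosc6 itself had 8.19 RPKM with AS against 8.28 in the control, a log2 fold change of -0.01.

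Nars, which charges asparagine, was the most abundant of the 43 genes in both libraries, with 252 RPKM under AS and 129 under the vehicle. The log2 fold change was 0.96 (interval 0.94 to 0.98), on 49277 against 28618 reads. Tars, the threonyl enzyme, had 123 RPKM with AS against 62.6 in the control, a log2 fold change of 0.97 (interval from 0.95 to just past 1), on 32617 against 18786 reads. These lie just below the threshold of 1, where Lars lies just above it.

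Sars, the seryl enzyme, had 189 RPKM with AS against 101.1 in the control, a log2 fold change of 0.90 (interval 0.88 to 0.92), on 43656 against 26421 reads. Gars is the single gene for both the cytosolic and the mitochondrial glycyl enzyme. It had 100.8 RPKM with AS against 58.7 in the control, a log2 fold change of 0.78 (interval 0.74 to 0.82), on 14125 against 9311 reads.

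The remaining class II enzymes were lower with AS or close to the vehicle. Kars, which like Gars serves both compartments and charges lysine, had 89.9 RPKM with AS against 104 in the control, on 18020 against 23642 reads. Its log2 fold change of -0.21 (interval -0.24 to -0.19) was the lowest of the cytosolic group. Hars for histidine, Farsa, the alpha subunit of the phenylalanyl enzyme, and Dars for aspartate had log2 fold changes of -0.20, -0.20 and -0.08, with intervals below 0. Farsb, the beta subunit of the phenylalanyl enzyme, went the other way, with 9.42 RPKM with AS against 8.15 in the control and a log2 fold change of 0.21 (interval 0.09 to 0.33). The intervals of the alpha and beta subunits do not overlap. Tarsl2, a second threonyl enzyme, had 3.60 RPKM with AS against 3.89 in the control, with an interval that spans 0.

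Selenocysteine is made on its tRNA from serine, and Pstk and Sepsecs encode the kinase and the synthase of that route. Sepsecs was the least abundant cytosolic member, with 1.78 RPKM from 559 reads under AS and 1.32 from 469 reads under the vehicle, a log2 fold change of 0.41 (interval 0.25 to 0.61). Pstk had 3.43 RPKM with AS against 2.95 in the control, a log2 fold change of 0.21. For Pstk, 58.7% of the 31-base stretches lie in other genes, most of them antisense in Ikzf5, so its value is uncertain. Of 5 further genes of selenoprotein synthesis, Sephs1, Sephs2, Secisbp2, Eefsec and Trnau1ap, 0 passed 1.5-fold, and their median was -0.04. Of all genes, 3.56% were higher and 2.01% lower by 1.5-fold, so a count of 0 among 5 says little.

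All 12 cytosolic genes of the ATF4 list were higher with AS, from 0.45 for Wars1 to 1.14 for Aars, and 10 of them passed 1.5-fold. The 11 cytosolic genes outside the list reached from -0.21 to 0.41, and 0 of them passed it. Of all genes 3.56%, and of those with at least 5 RPKM in the vehicle library 1.74%, were higher by as much. At these shares a count of 0 among 11 says little. The ranges of the groups do not overlap, but the counting intervals of the nearest genes do. They were 0.34 to 0.56 for Wars1 and 0.25 to 0.61 for Sepsecs, the highest gene outside the list. The list was made from earlier knowledge of ATF4 targets but with results of these data known. The listed genes held 73.4% of the summed cytosolic RPKM with AS and 59.1% with the vehicle. Their own sum was 952 with AS against 509 in the control, whereas that of the other 11 was 345 and 352. The order of abundance differed accordingly. Kars was next to Nars with the vehicle and had place 5 with AS, behind Sars, Tars and Gars as well. Lars and Aars held places 9 and 11 with the vehicle and places 6 and 7 with AS, above Rars, Qars and Vars. Atf4 itself had 123 RPKM with AS against 75.5 in the control, a log2 fold change of 0.70, and Eif2ak4, the gene of GCN2, had -0.03.

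**Figure D2:**
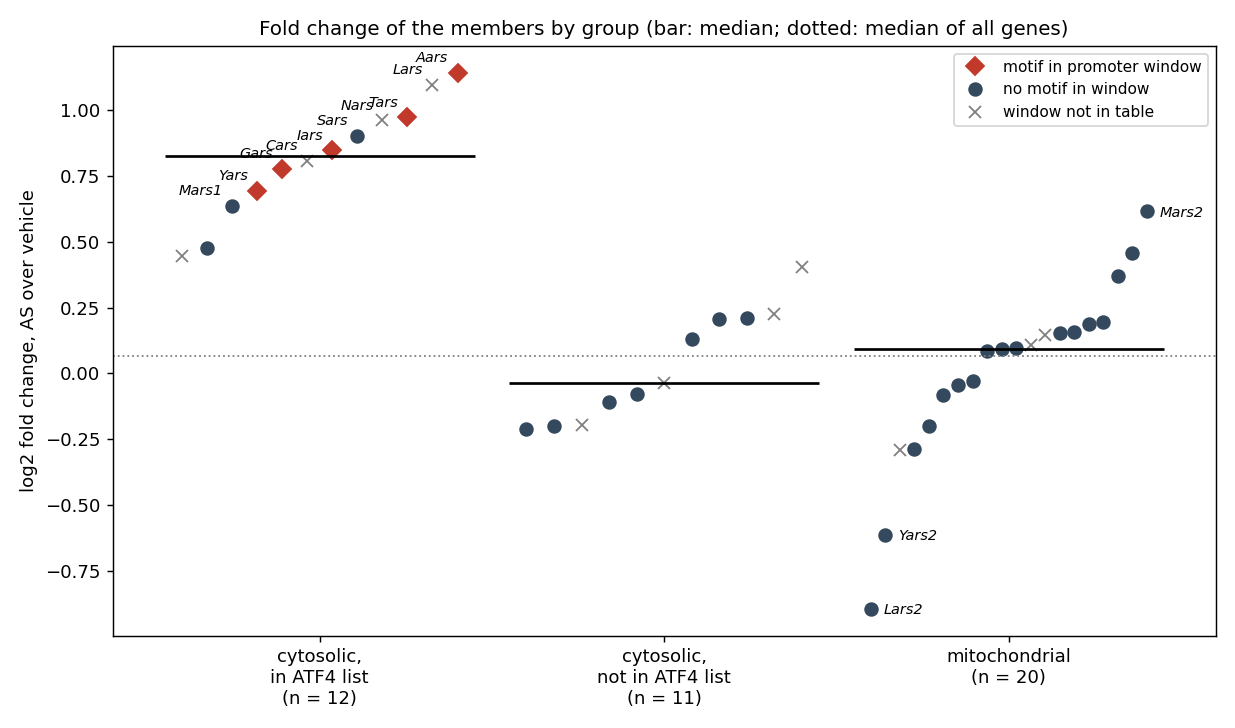
Log2 fold change of AS over vehicle for each member, in 3 groups, with a bar at the group's median and a dotted line at the median of all genes. Diamonds mark a promoter window that holds the searched motif and crosses mark genes with no window in the promoter table. The 12 cytosolic genes of the ATF4 list all lie above the 11 others, though the counting intervals of the nearest, Wars1 and Sepsecs, overlap. The list was made with results of these data known.

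ATF4 binds as a dimer with C/EBP proteins to a composite element, and its core TGATGNAA was searched on both strands of the RefSeq promoter table (GRCm38.p6), from 250 bases before to 50 bases after each start. The table held windows for 32 of the members. The other 11, Cars, Hars, Lars, Nars, Rars, Sepsecs, Vars, Wars1, Gatb, Hars2 and Pars2, were not searched. The motif stood in the windows of 5 members, Aars, Gars, Iars, Tars and Yars, or 15.6% of the searched members. Over the whole promoter table it stood in 3.97% of 32851 windows, which is a share of windows and not of genes. The stretches of 30 bases below are shown since all 5 members with the motif were among the 7 searched cytosolic genes that passed 1.5-fold. They are written 5′ to 3′ on the strand of the gene with the motif in capitals, and a motif on the other strand reads TTNCATCA.

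Aars, chr8:111033840-111033869, plus strand: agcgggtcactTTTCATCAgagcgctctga
Gars, chr6:55037960-55037989, plus strand: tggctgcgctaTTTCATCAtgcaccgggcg
Iars, chr13:49682126-49682155, plus strand: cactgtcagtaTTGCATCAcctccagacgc
Tars, chr15:11399655-11399684, minus strand: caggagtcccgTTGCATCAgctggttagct
Yars, chr4:129189895-129189924, plus strand: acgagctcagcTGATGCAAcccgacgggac

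The motif of Gars begins 30 bases before the start site and that of Tars 15 bases before it. Those shown for Aars, Iars and Yars lie just inside the transcript, at bases 10, 8 and 4. Of the sites shown, those of Iars and Tars hold the letters TTGCATCA, which is the same element as the TGATGCAA of Yars read from the opposite strand. The sites shown for Aars and Gars hold TTTCATCA. Sars and Mars1 also passed 1.5-fold and had no match in the window, nor had Mars2 among the mitochondrial genes, and no match says only that these letters are not in the window. Over all genes of the table with a window, 12.1% of the 248 with the motif and 2.95% of the 9432 without it were higher by 1.5-fold, and 2.02% and 1.45% were lower by as much. The 248 include the 5 members with the motif. A match describes the sequence and is not a shown binding site.

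The mitochondrial members were low in level and mostly close to the vehicle. Only Gatc, Iars2, Hars2, Rars2 and Lars2 had more than 5 RPKM in the vehicle library, and the median level was 1.58 RPKM with AS against 1.96 in the control. The intervals of 11 of the 20 genes span 0, those of 6 lie above it and those of 3 below it. These counts have no share over all genes beside them, so they describe the members only. In the cytosolic group 2 of 23 intervals span 0. Whether an interval spans 0 depends on the size of the difference as well as on the reads. The median number of reads with AS was 368.5 in the mitochondrial group and 9546 in the cytosolic one.

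Lars2, the mitochondrial leucyl enzyme on chromosome 9 from 123366927 to 123462666, was the lowest of all members by fold. Its RPKM was 3.22 with AS, from 1605 reads, and 6.08 with the vehicle, from 3425 reads. The log2 fold change was -0.89 (interval from just below -1 to -0.83). Under the alternatives described below it was from -0.99 to -0.75. Rn7s1 and Mir6236 were also lower with AS, and their part in the value of Lars2 was not tested. Yars2, for tyrosine, had 1.67 RPKM from 236 reads with AS and 2.61 from 417 reads in the control, and its log2 fold change was -0.61 (interval -0.88 to -0.41). Both were lower by more than 1.5-fold, as were 2.01% of all genes. With 1 RPKM added Yars2 had -0.43 and no longer passed 1.5-fold.

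Mars2, the mitochondrial methionyl enzyme, was the only mitochondrial gene higher by 1.5-fold. It was also the least abundant of the 43 genes, with 0.414 RPKM from 210 reads under AS and 0.235 from 135 reads under the vehicle. Its log2 fold change was 0.62, with an interval from 0.50 to 1.14. The value was 0.82 with no RPKM added and 0.20 with 1 RPKM added, which is under 1.5-fold. Ears2 and Wars2, for glutamate and tryptophan, came next with log2 fold changes of 0.46 and 0.37 and intervals above 0. Ears2 had 1.22 RPKM with AS against 0.863 in the control, and Wars2 had 1.29 and 0.976. Of genes under 5 RPKM in the vehicle library, 5.3% were higher by 1.5-fold and 2.25% lower.

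Of the other mitochondrial synthetases, Pars2 for proline and Sars2 for serine both had a log2 fold change of -0.29, Aars2 -0.20, Cars2 -0.08 and Vars2 -0.03. Those of Tars2, Rars2, Hars2, Fars2, Iars2 and Nars2 were from 0.08 to 0.19. Iars2, the most abundant mitochondrial synthetase, had 10.7 RPKM with AS against 9.61 in the control. Its value is uncertain, since 23.6% of its 31-base stretches occur in other genes, mainly antisense in Rab3gap2, which had a log2 fold change of 0.21. Pars2 rests on 137 and 193 reads.

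Mitochondria form glutaminyl-tRNA indirectly: Ears2 first loads glutamate, and the amidotransferase of Qrsl1, Gatb and Gatc converts it. Mtfmt formylates the initiator methionyl-tRNA. Gatc was by far the most abundant of these, with 27.7 RPKM with AS against 24.2 in the control, against 1.43 and 1.48 for Qrsl1 and 2.44 and 2.19 for Gatb, so the transcripts of the 3 subunits were not at equal levels in either library. Their log2 fold changes were 0.19, -0.04 and 0.15, and only that of Gatc had an interval above 0 (0.11 to 0.28, on 2235 against 2209 reads). Mtfmt had 2.70 RPKM with AS against 2.52 in the control.

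Setting the cytosolic and the mitochondrial enzyme side by side gave 18 pairs for 16 amino acids. The level of the cytosolic gene was above that of its partner in 17 pairs with the vehicle, by up to 133-fold for asparagine. In the pair of Tarsl2 and Tars2 it was 0.832 of it. With AS, the ratio of Nars to Nars2 was 225. The interval of the cytosolic gene lay above that of its partner in 9 pairs, below it in 2 and overlapped it in 7.

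The difference was largest for leucine, where Lars was higher and Lars2 lower and the log2 fold changes were 1.99 apart. The ratio of their levels was 5.49 with the vehicle and 22.2 with AS. The limit given for Lars2 above applies here as well. Alanine and tyrosine followed with differences of 1.34 and 1.31, serine with 1.19, and cysteine and threonine (Tars) with 0.89 each. For methionine, tryptophan and glutamate both enzymes were higher, and the differences were 0.02, 0.07 and 0.02. That for methionine depends on the amount added. With 0 RPKM added Mars1 had 0.64 and Mars2 0.82, and with 1 RPKM added they had 0.60 and 0.20. In the 2 pairs whose cytosolic interval lay below that of the partner, the cytosolic gene was lower by less than 1.5-fold. The differences were -0.35 for phenylalanine (Farsa and Fars2) and -0.30 for histidine. Hars2 was higher by less than 1.5-fold, whereas the interval of Fars2 spans 0. For Farsb, the other phenylalanyl subunit, the difference from Fars2 was 0.05 and the intervals overlap. Hars and Hars2 stand head to head on chromosome 18 and share 198 bases at their starts. Vars and Vars2 both stayed close to the vehicle.

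**Figure D3:**
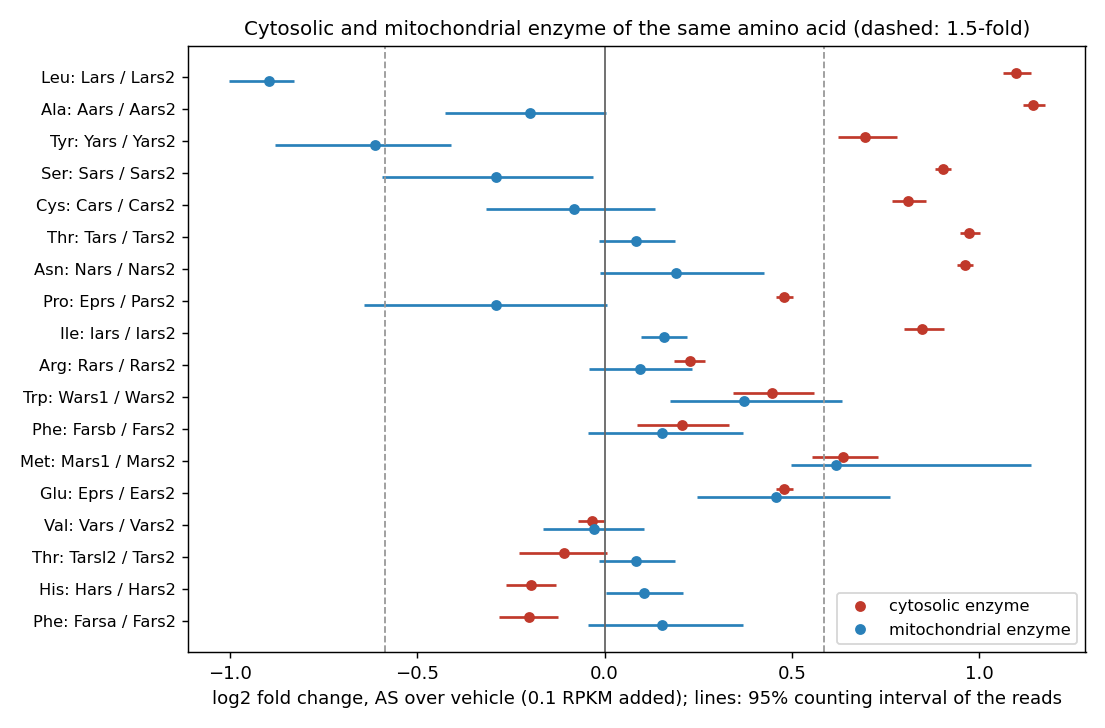
Log2 fold change of the cytosolic and the mitochondrial enzyme of each amino acid, with lines for the 95% counting interval of the reads and dashed lines at 1.5-fold. Leucine stands at the top with 1.10 for Lars and -0.89 for Lars2, and valine shows both enzymes near 0.

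In the cytosol, 8 of the synthetases (Dars, Eprs, Iars, Kars, Lars, Mars1, Qars and Rars) assemble on the scaffold proteins Aimp1, Aimp2 and Eef1e1 into the multisynthetase complex. The transcripts of its parts differed unequally between the libraries. Lars, Iars and Mars1 were higher by more than 1.5-fold and Eprs by 0.48 on the log2 scale, whereas Kars and Dars were lower by less than that. The 4 complex enzymes in the ATF4 list summed to 161 RPKM with AS against 90.9 in the control, and the other 4 to 239 and 241. This split is descriptive only, since the list was made with results of these data known. The scaffolds Aimp1, Aimp2 and Eef1e1 had log2 fold changes of 0.05, -0.27 and 0.08, of which only that of Aimp2 had an interval that excludes 0. Aimp1 had 25.9 RPKM with AS against 25.04 in the control. The median log2 fold change was 0.35 in the complex and 0.69 over the 13 cytosolic synthetases outside it.

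**Figure D4:**
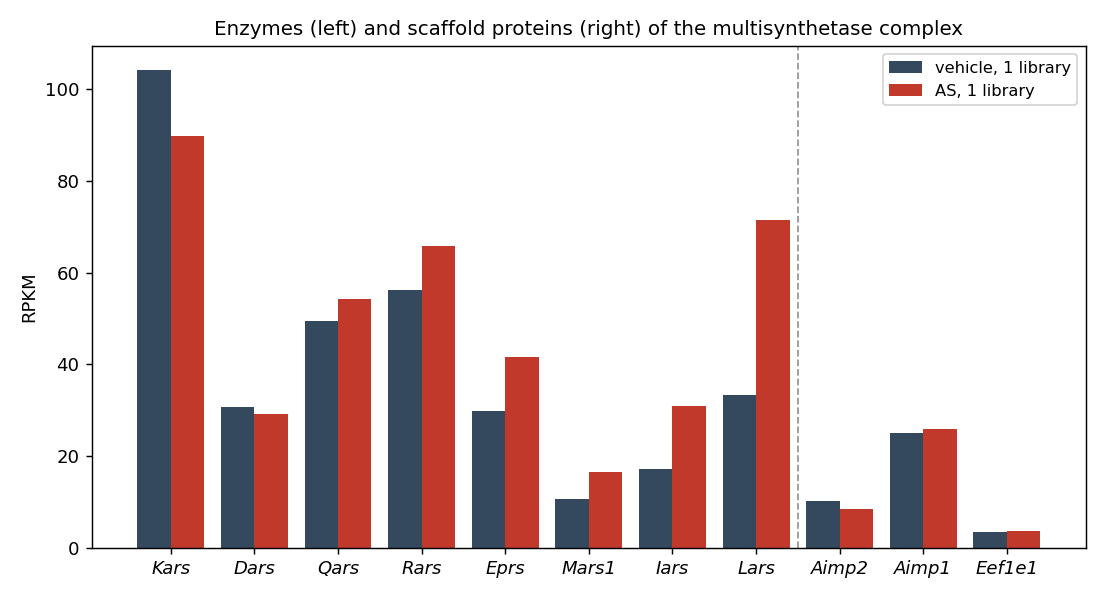
RPKM of the 8 enzymes (left of the dashed line, in order of their fold change) and 3 scaffold proteins (right) of the multisynthetase complex in the vehicle library and the AS library. Each bar is 1 library. Lars has the largest gap, 33.4 against 71.6 RPKM. Among the scaffolds, Aimp2 has 10.3 RPKM with the vehicle against 8.51 with AS, and Aimp1 and Eef1e1 have bars of like height.

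A split by catalytic class gave a median of 0.64 for the 9 class I and 0.21 for the 11 class II enzymes of the cytosol, without Eprs. Both classes held 5 genes higher by 1.5-fold, and both reached nearly as high, with 1.10 for Lars and 1.14 for Aars.

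Other genes that act on tRNA were mostly close to the vehicle, and 2 of 37 listed genes of tRNA handling and amino acid sensing passed 1.5-fold, both upward, where 3.56% of all genes did so. Xpot, which encodes exportin-t, the carrier of tRNA out of the nucleus, had 22.03 RPKM with AS against 10.9 in the control, on 5968 against 3342 reads. Its log2 fold change of 1.01 (interval 0.95 to 1.08) was beyond the threshold of 1. Atf4, a transcription factor from the list of sensing genes, was the second. Of the other 14 genes of tRNA maturation, Elac1 came closest to 1.5-fold with a log2 fold change of 0.56, and the CCA-adding enzyme Trnt1 had 0.11. The 8 genes of editing and recycling, among them Dtd1 and Aarsd1, had a median of 0.03 and a highest value of 0.32. Tufm and Tsfm, the elongation factors that bring charged tRNA to the mitochondrial ribosome and recycle its carrier, had log2 fold changes of -0.28 and -0.13.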

How the data were processed

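RNA-seq was made from 4T1 cells, with 1 library per condition. The authors deposited 1 table of 14197 genes, which gives the RPKM of each library. Its unit was found from the values. The submitters' processing notes name fastp 0.23.4, STAR 2.5.3a, featureCounts and the build GRCh38, although the symbols are those of mouse genes and 94.1% of the 13502 genes with 1 entry in GENCODE M21 (GRCm38) had an implied exon length equal to it. The authors' mean log2 CPM, with the RPKM ratio, gave whole reads for 100% of the genes (relative tolerance 1e-09) and library sizes of 44909683 and 50820728. The deposited log2 fold change, p-value and FDR columns of the authors were not used, since they hold the authors' own comparison.

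The plan expected RPKM, and no test was possible with 1 library per condition. Members and lists were chosen with earlier results of these data known. Named genes are all members, by role, with reads and intervals for those past 1.5-fold and for the most and least abundant, and listed pathway genes past 1.5-fold. Pathway genes under 1.5-fold that are named beside them were chosen after their values were seen. The threshold of 1 follows the study's methods. Reads without molecular identifiers are not independent molecules. Alternatives were 0 or 1 RPKM added, scaling by TMM, by median of ratios or by the upper quartile with 0.5 reads added, a minimum mean of 50 reads, thinning of the deeper library and the other threshold. Recovery was tested on simulated data. Shared stretches of 31 bases were counted in GENCODE M21 transcripts, on both strands. Not every match in the promoter windows of the members is reported here. Computations ran in Python 3.11.15 with numpy 2.4.6, scipy 1.17.1 and pandas 2.3.3.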

Additional observations from a re-analysis of the deposited data

How the results depend on the processing

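At a threshold of 1.5-fold in place of a log2 fold change of 1, the number of cytosolic members past it was 10 in place of 2, and that of mitochondrial members 3 in place of 0. Under the other 7 alternatives these counts were 2 and 0 as before, the cytosolic median was from 0.37 to 0.46, the mitochondrial one from 0.02 to 0.10, and their difference from 0.33 to 0.36. No member changed sign under any alternative. Scaling by TMM, by median of ratios and by the upper quartile moved the ratio of the libraries by -0.07, -0.07 and -0.08 on the log2 scale. These alternatives also add 0.5 reads in place of 0.1 RPKM, so low genes moved otherwise, as Mars2 to 0.75 with TMM. Mars1 then fell under 1.5-fold, at 0.57, 0.57 and 0.56. With TMM, 499 of all genes were higher by 1.5-fold and 474 lower, against 505 and 286 as deposited. With 1 RPKM added, 189 were higher and 130 lower, Mars2 had 0.20 and Yars2 -0.43, so neither passed 1.5-fold. A minimum mean of 50 reads removed no member. With 1 library per condition, no library could be left out. No paired analysis was possible because each condition has 1 library. The mitochondrial members had fewer reads, with a median of 368.5 with AS against 9546 for the cytosolic members, and 11 of their 20 intervals span 0.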
